A study of Mus musculus with 2 samples.

Results

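The 40 genes described here are the S-phase and DNA replication genes of a fixed list, read by gene symbol from the 32285 genes counted, and all 40 were found. Liver sinusoidal endothelial cells (LSECs), the fenestrated cells that line the capillaries of the liver, were analysed by droplet 3′ scRNA-seq, in which a unique molecular identifier (UMI) stands for each captured mRNA molecule. Maf LSEC-KO mice were Clec4g-iCre tg/wt and Maf fl/fl, so that a Cre driven by the Clec4g promoter, active in LSECs from late fetal life, deletes Maf, which codes for the transcription factor c-Maf. Control mice were littermates without Cre that carried 1 or 2 floxed Maf alleles, although the labels call them WT, and both groups were otherwise untreated. Each condition was 1 library from a pool of 3 mice. The study used female and male mice of 2 ages, and neither the age nor the sex of these pooled mice is given in the sources used here. There were no replicates, so no difference between the libraries could be tested, all intervals are 95% intervals for counting error only, and any other difference between the libraries cannot be told apart from the genotype.

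A cell that divides copies its genome once, in S phase. Before that, origins of replication are licensed by loading of the ring-shaped MCM helicase. The helicase is then started by firing factors, and polymerases that are held on DNA by the sliding clamp PCNA copy both strands while nucleotides and new histones are supplied. Most genes for these steps are switched on together at the end of G1 by E2F transcription factors, whereas genes of mitosis follow later in the cycle. Resting adult LSECs divide rarely, and their division is best known from liver regeneration.

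The deposited matrices had 5664 control barcodes (47681895 UMIs in all) and 7091 Maf LSEC-KO barcodes (89872764 UMIs). Doublets and cells with a UMI of Vwf, a gene of larger vessels, were removed, so that 4101 control and 3117 Maf LSEC-KO LSECs remained, with a median of 8395 and 14220 UMIs. The Vwf filter took 161 control and 1135 Maf LSEC-KO cells, so it did not act alike on the libraries. The LSECs showed UMIs of all 14 endothelial and all 10 LSEC marker genes in both libraries. Levels are given as CPM, the UMIs of a gene per 1000000 UMIs outside mitochondrial and ribosomal protein genes. These excluded genes took 12.1% of control and 23.0% of Maf LSEC-KO UMIs. Maf itself was counted with 113977 UMIs (3471 CPM) in control and 4821 UMIs (123 CPM) in Maf LSEC-KO LSECs, which is a log2 ratio of -4.82 (-4.86 to -4.77). Whether the floxed part of Maf holds the 3′ end that is counted is not given in the sources used here. The libraries shared 10 barcodes.

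All 40 replication genes had a higher level in Maf LSEC-KO than in control LSECs. Together they took 30896 UMIs in control LSECs, which is 940.9 CPM (930.5 to 951.5), while Maf LSEC-KO LSECs held 94994 UMIs of them, which is 2429 CPM (2413 to 2444). The log2 ratio of these sums was 1.37 (1.35 to 1.39). At least 2-fold higher levels were found for 34 of the 40 genes, against 12.5% of the 11803 genes with at least 100 UMIs over both libraries. More than 4-fold higher were 17 of the 40, a limit at which the share of all genes was not counted. At least 2-fold lower were 0 of the 40, against 5.47% of all genes. The median log2 ratio was 1.69 over the 40 genes and 0.14 over all genes with that minimum. Relative to this shift, by the median of ratios over genes, the summed log2 ratio was 1.24 and 31 genes remained at least 2-fold higher. Each of the 40 stayed above control with every scaling tried, including the UMIs of all genes as denominator, where the lowest log2 ratio was 0.12.

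**Figure D1:**
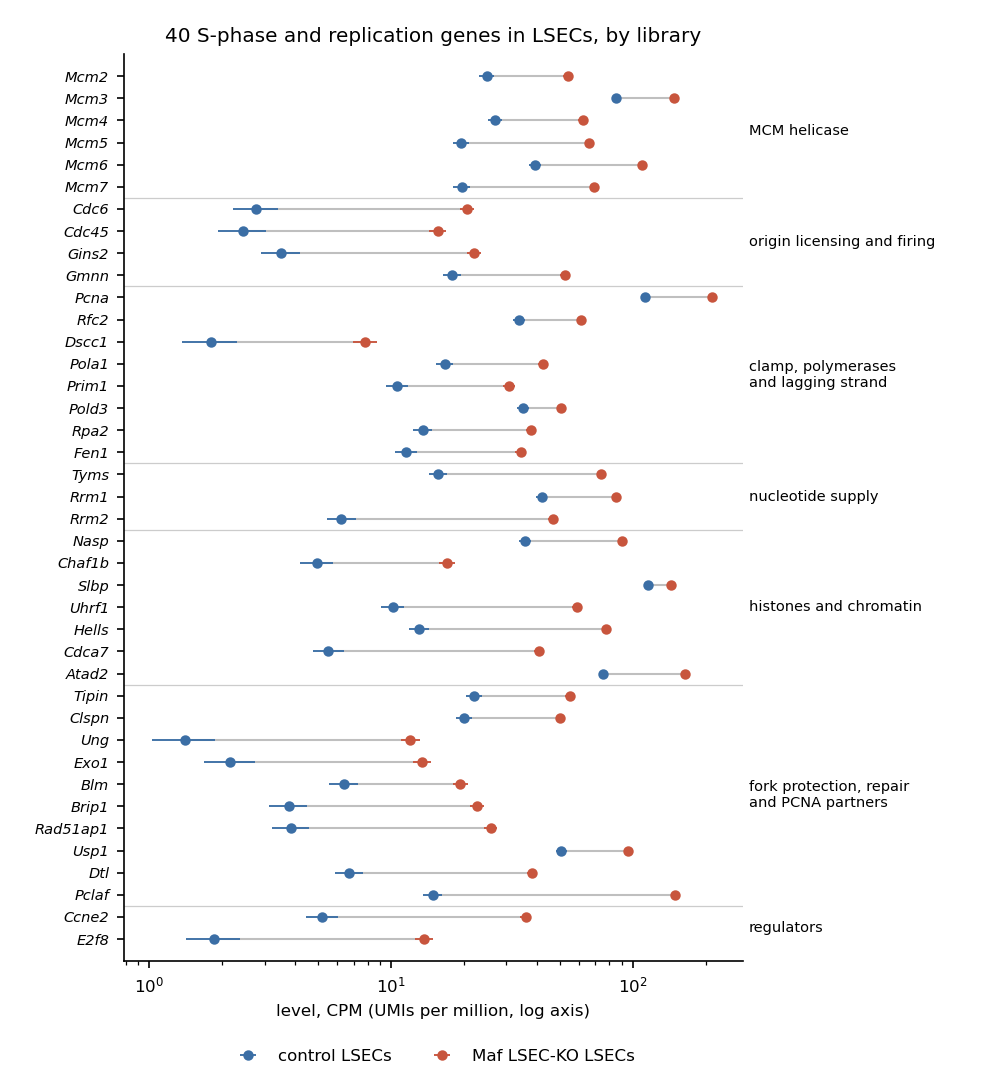
Level of each replication gene in the LSECs of the control (blue) and the Maf LSEC-KO (red) library, in CPM on a log axis, with 95% counting intervals as horizontal bars and genes grouped by role. Every red point lies to the right of its blue point, from Slbp with 116 against 144 CPM to Pclaf with 14.9 against 150 CPM.

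Since E2F factors bind short sites near the start of such genes, the RefSeq promoter windows of GRCm38.p6, 250 bases before to 50 after the start of a gene, were searched for the E2F consensus letters TTTCCCGC, TTTGGCGC, TTTCGCGC and TTTGCCGC on both strands. These letters stood in 13 of the 30 replication genes with a window (43.3%), in 21 of 63 other replication genes (33.3%), in 1 of 29 genes of G2 and mitosis (3.45%) and in 704 of all 27025 genes with a window (2.61%). More than 1 match was found in 4 of the 33 windows of the 40 genes and in 0.0974% of all windows. Overlapping matches, as in Mcm5 and Mcm6, were each counted. For 8 of the 13 genes 1 site each is shown. These are helicase genes, the licensing gene Cdc6, Hells and its partner Cdca7, and the PCNA partners Dtl and Pclaf, the last with the highest ratio. Mcm3, Uhrf1, Pola1, Pold3 and Clspn had matches too. Each is printed 5′ to 3′ on the strand of the gene, with the matched letters in capitals.
Mcm5 (chr8:75109345-75109374, plus strand): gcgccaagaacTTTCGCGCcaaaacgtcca
Mcm6 (chr1:128359734-128359763, minus strand): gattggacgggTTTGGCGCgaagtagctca
Mcm7 (chr5:138171849-138171878, minus strand): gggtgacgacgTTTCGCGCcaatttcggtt
Cdc6 (chr11:98908002-98908031, plus strand): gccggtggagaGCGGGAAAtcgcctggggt
Hells (chr19:38930917-38930946, plus strand): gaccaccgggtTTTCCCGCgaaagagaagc
Cdca7 (chr2:72476137-72476166, plus strand): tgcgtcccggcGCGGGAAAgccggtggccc
Dtl (chr1:191575534-191575563, minus strand): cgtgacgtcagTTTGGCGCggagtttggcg
Pclaf (chr9:65890307-65890336, plus strand): gcttggagcgcGCGGGAAAgagacccattt

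With the first base of the RefSeq transcript as position 1, the Pclaf match began at position -5, the Dtl match at -8 and the Mcm6 match printed here at -47. The 13 genes with a match had a median log2 ratio of 1.82 (0.53 to 3.33) and the 17 with a window and no match 1.60 (0.31 to 3.10), so the ranges overlapped over most of their length. Ung, Rrm2 and E2f8 were among the genes without a match. Mcm4, Gins2, Gmnn, Rfc2, Dscc1, Atad2, Tipin, Exo1, Usp1 and Ccne2 had no window.

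The 6 MCM genes, which code for the subunits of the helicase that unwinds DNA at the fork, summed to 215 CPM in control and 510 CPM in Maf LSEC-KO LSECs, with a log2 ratio of 1.24 (1.20 to 1.28), and 5 of the 6 were at least 2-fold higher. Mcm7 had 644 UMIs (19.6 CPM) in control and 2714 UMIs (69.4 CPM) in Maf LSEC-KO LSECs, which is a log2 ratio of 1.82. Mcm5 had 19.5 and 66.2 CPM, a log2 ratio of 1.77. Mcm6 had 39.4 and 110 CPM, a log2 ratio of 1.48. The subunits were thus not higher by the same factor, although they form 1 ring. Mcm4 (27.0 and 62.0 CPM) and Mcm2 (24.9 and 54.0 CPM) stood at log2 ratios of 1.20 and 1.12. Mcm3, with 84.9 CPM in control and 148.5 CPM in Maf LSEC-KO LSECs, had the lowest ratio of the 6, a log2 of 0.81 (0.74 to 0.87).

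The 4 licensing and firing genes were further apart between the libraries, with 26.6 CPM in control and 111 CPM in Maf LSEC-KO LSECs together and a log2 ratio of 2.06 (1.95 to 2.16). Cdc6, which loads the MCM ring, had 91 UMIs (2.77 CPM) in control and 807 UMIs (20.6 CPM) in Maf LSEC-KO LSECs, which is a log2 ratio of 2.90 (2.58 to 3.23). Cdc45 and Gins2, which join the MCM ring to form the active helicase, had log2 ratios of 2.68 and 2.66, from 2.44 to 15.6 CPM and from 3.50 to 22.1 CPM. Gmnn codes for geminin, which stops a second round of licensing. Its log2 ratio was 1.55, from 17.9 CPM in control to 52.3 CPM in Maf LSEC-KO LSECs.

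The 8 genes of the clamp, the polymerases and the lagging strand had the lowest ratio among the roles, with 235 CPM in control and 478 CPM in Maf LSEC-KO LSECs and a log2 ratio of 1.02 (0.99 to 1.06), and 5 of the 8 were at least 2-fold higher. Pcna, the sliding clamp, had 3681 UMIs (112 CPM) in control and 8331 UMIs (213 CPM) in Maf LSEC-KO LSECs, which is a log2 ratio of 0.93. Rfc2, a subunit of the loader that places the clamp on DNA, had 33.8 and 61.1 CPM, a log2 ratio of 0.85. Pold3, a subunit of polymerase delta, had 35.2 and 50.6 CPM, a log2 ratio of 0.53. These were the 3 genes of this role below 2-fold. Dscc1, part of another clamp loader, had only 59 control UMIs, against 306 in Maf LSEC-KO, with the widest interval of the role (1.72 to 2.55 around a log2 ratio of 2.12). Pola1 and Prim1, the catalytic polymerase and primase subunits that start each strand, had log2 ratios of 1.35 and 1.53. Rpa2, which coats single-stranded DNA, and Fen1, which trims Okazaki fragments, stood at 1.49 and 1.58. Pcna, Tyms and Nasp have annotated processed pseudogenes, and reads shared with such copies may be missing from their counts.

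Nucleotide supply was represented by 3 genes, all at least 2-fold higher, with 64.1 CPM in control and 206 CPM in Maf LSEC-KO LSECs together. The ratio differed between the subunits of ribonucleotide reductase, the enzyme that makes deoxyribonucleotides. Rrm2, the subunit made mainly in S phase, had 205 UMIs (6.24 CPM) in control and 1825 UMIs (46.7 CPM) in Maf LSEC-KO LSECs, which is a log2 ratio of 2.90 (2.69 to 3.12). Rrm1, the larger and more stable subunit, had 42.1 and 85.2 CPM, a log2 ratio of 1.02 (0.92 to 1.11). The intervals of the 2 subunits lie far apart. Tyms, which makes thymidylate, had 15.7 and 74.0 CPM, a log2 ratio of 2.24.

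Among the 7 genes of histones and chromatin, those that copy DNA methylation and remodel chromatin behind the fork differed most from control. Hells, a chromatin remodeler, had 13.0 CPM in control and 77.5 CPM in Maf LSEC-KO LSECs, which is a log2 ratio of 2.57. Cdca7, its activating partner, had 5.51 and 41.0 CPM, a log2 ratio of 2.89, and Uhrf1, which recruits the maintenance DNA methyltransferase to replicated DNA, had 10.2 and 58.6 CPM, a log2 ratio of 2.53. Thus the remodeler, its partner and Uhrf1 were all more than 4-fold higher. The histone chaperone genes Chaf1b (4.93 and 17.1 CPM) and Nasp (35.9 and 90.0 CPM) had log2 ratios of 1.80 and 1.33, and Atad2, a chromatin ATPase, had 75.5 and 164 CPM with a log2 ratio of 1.12. Slbp, which binds the stem loop of histone mRNA, was closest to control of all 40 genes, with 3796 UMIs (116 CPM) in control and 5622 UMIs (144 CPM) in Maf LSEC-KO LSECs and a log2 ratio of 0.31 (0.25 to 0.37).

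The 10 genes of fork protection, repair and PCNA partners included the gene with the highest ratio, and 9 of the 10 were at least 2-fold higher. Pclaf, a small protein that binds PCNA, lies at chr9:65890237-65903266 (GRCm38, GENCODE M21) on the plus strand. The RefSeq start used for the promoter window lies 86 bases inside this gene, so that the printed match spans the RefSeq start and lies after the GENCODE start. The printed matches of Cdc6 and Hells stand before the RefSeq and after the GENCODE start, and that of Mcm7 lies after both. Pclaf had 488 UMIs (14.9 CPM) in control and 5850 UMIs (150 CPM) in Maf LSEC-KO LSECs, which is a log2 ratio of 3.33 (3.20 to 3.47). Ung, the glycosylase that removes uracil from new DNA, followed with 46 UMIs (1.40 CPM) and 471 UMIs (12.0 CPM), a log2 ratio of 3.10 (2.66 to 3.57). Dtl, an adaptor of the ubiquitin ligase that acts on PCNA-bound proteins, had 6.73 and 38.4 CPM, a log2 ratio of 2.51. Of the repair genes, Rad51ap1 (3.87 and 25.9 CPM), Exo1 (2.16 and 13.5 CPM) and Brip1 (3.78 and 22.8 CPM) were 6-fold apart or more on the CPM scale, with log2 ratios of 2.74, 2.64 and 2.59. The helicase gene Blm stood at 1.60, and Clspn and Tipin, which hold the fork and its checkpoint together, both at 1.32. Usp1, the deubiquitinase of PCNA, was the 1 gene of this role below 2-fold, with 50.7 and 95.6 CPM and a log2 ratio of 0.91.

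Both regulators were more than 4-fold higher. Ccne2, cyclin E2, which drives the entry into S phase, had 171 UMIs (5.21 CPM) in control and 1410 UMIs (36.1 CPM) in Maf LSEC-KO LSECs, which is a log2 ratio of 2.79 (2.56 to 3.03). E2f8, a late repressor among the E2F factors, had 61 UMIs (1.86 CPM) and 535 UMIs (13.7 CPM), a log2 ratio of 2.88 (2.50 to 3.29).

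Other parts of the replication machinery were read beside the 40 genes. Of 76 other replication genes, 75 had the minimum of UMIs, 35 of these were at least 2-fold higher and none at least 2-fold lower, with a median log2 ratio of 0.92. The 5 with the highest ratio were Shmt1, an enzyme of one-carbon metabolism (1.68 and 19.8 CPM, log2 ratio 3.56), Ccne1, cyclin E1 (1.10 and 10.4 CPM, 3.24), Ticrr, a firing factor (0.640 and 6.03 CPM, 3.24), Orc1, a subunit of the origin recognition complex (0.518 and 4.09 CPM, 2.98), and Brca1, a repair gene (3.23 and 23.0 CPM, 2.83). The 5 with the lowest ratio were Rbl2 (35.9 and 24.4 CPM, -0.56) and Rb1 (66.3 and 59.2 CPM, -0.16), both of the retinoblastoma family that restrains E2F, Samhd1, which degrades nucleotides (123 and 94.7 CPM, -0.38), Rrm2b, the reductase subunit of resting cells (36.1 and 31.7 CPM, -0.19), and Pola2 (79.9 and 77.3 CPM, -0.05). The lower end of the list thus held genes known from resting cells beside a polymerase subunit.

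Whether the higher level stood for more cells in cycle or for more mRNA per cell cannot be told apart in the sums, so the LSECs were split by a UMI of Mki67, a gene of cycling cells. In control, 104 of 4101 LSECs (2.54%, 2.08 to 3.06) had a Mki67 UMI, and in Maf LSEC-KO 736 of 3117 (23.6%, 22.1 to 25.1). After each LSEC was thinned to 2700 UMIs these shares were 1.81% and 14.0%. Neutrophil and monocyte-like cells, taken as background, showed a Mki67 UMI in 1 of 40 cells (2.50%) of the control and in 4 of 86 cells (4.65%) of the Maf LSEC-KO library, at a median of 3863 and 4310.5 UMIs. Whether these cells express no Mki67 of their own was not tested. The control share of LSECs is at this background, which rests on 1 control cell (interval 0.0633% to 13.2%), and was not read as expression by itself. Each of these 5 cells had a single Mki67 UMI, and so did 30 of the 104 control (28.8%) and 231 of the 736 Maf LSEC-KO LSECs (31.4%) with Mki67. The other LSECs of the class had more, with a median over the class of 4 Mki67 UMIs in control and 5 in Maf LSEC-KO and means of 15.1 and 15.6. The replication genes went with this split in both libraries. In control, 33 of the 34 genes with at least 100 UMIs were at least 2-fold higher in LSECs with than in those without a Mki67 UMI, with a median log2 ratio of 2.67, where 5.80% of all genes were higher and 3.18% lower. Among Maf LSEC-KO cells it was 39 of 40, with a median of 2.14, where 4.62% of all genes were higher and 0.553% lower.

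In LSECs with a Mki67 UMI the ratio of the summed level between the libraries was smaller. The sum was 4469 CPM (4359 to 4582) in the 104 control cells and 4916 CPM (4877 to 4954) in the 736 Maf LSEC-KO cells, a log2 ratio of 0.14 (0.10 to 0.18) that turned to -0.06 (-0.10 to -0.02) with the UMIs of all genes as denominator. At least 2-fold higher were 2 of the 40 genes, or 5%, against 8.28% of all genes with the minimum, and 0 of the 40 were at least 2-fold lower, against 3.85%. The counting interval lay above 0 for 14 of the 40 genes, below 0 for 4 and held 0 for 22. The shares of all genes with such intervals were not counted, so these counts are not read as particular to the 40. The 2 genes at least 2-fold higher were Cdca7, with 21.5 and 62.7 CPM and a log2 ratio of 1.54 (1.02 to 2.12), and Ung, with 7.17 and 20.9 CPM and a log2 ratio of 1.54 (0.64 to 2.62) that rests on 10 control UMIs. Pclaf was next, with 217 and 429 CPM and a log2 ratio of 0.98. Below 0 with an interval clear of 0 were Atad2 (480 and 342 CPM, log2 ratio -0.49), Slbp (281 and 235 CPM, -0.26), Rrm1 (214 and 180 CPM, -0.25) and Pcna (487 and 411 CPM, -0.24). Median depth in this class was 14319 UMIs in control and 19673.5 UMIs in Maf LSEC-KO, and its part in these differences was not tested beyond the thinned value, a log2 ratio of 0.09 (0.00 to 0.19).

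In LSECs without a Mki67 UMI the sum was 784.5 CPM (774.7 to 794.3) in 3997 control cells and 1212 CPM (1199 to 1225) in 2381 Maf LSEC-KO cells, a log2 ratio of 0.63 (0.60 to 0.65), and 0.63 (0.57 to 0.68) after thinning. Of the 38 genes with the minimum of UMIs, 19 were at least 2-fold higher, against 9.79% of all genes, and 0 at least 2-fold lower, against 5.09%. Ung (1.15 and 7.73 CPM), Cdc6 (1.02 and 6.66 CPM), Cdca7 (4.80 and 30.3 CPM), Ccne2 (1.37 and 8.45 CPM), Rrm2 (0.732 and 3.54 CPM) and Dtl (3.02 and 14.1 CPM) had the highest of these log2 ratios, between 2.22 and 2.75. Slbp was lower, with 108 CPM in control and 98.95 CPM in Maf LSEC-KO and a log2 ratio of -0.13. With the UMIs of all genes as denominator Pold3 and Rrm1 were below control too. Where a Top2a UMI took the place of Mki67, the log2 ratio of the sum outside the class was 0.43 (0.40 to 0.45). Outside the clusters led by replication or mitosis genes, it was 0.34 (0.31 to 0.37). Neutrophil and monocyte-like cells, read as background, had 181 CPM of the 40 genes in control and 412.5 CPM in Maf LSEC-KO. The part of such background RNA in the ratio without a Mki67 UMI was not tested.

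**Figure D2:**
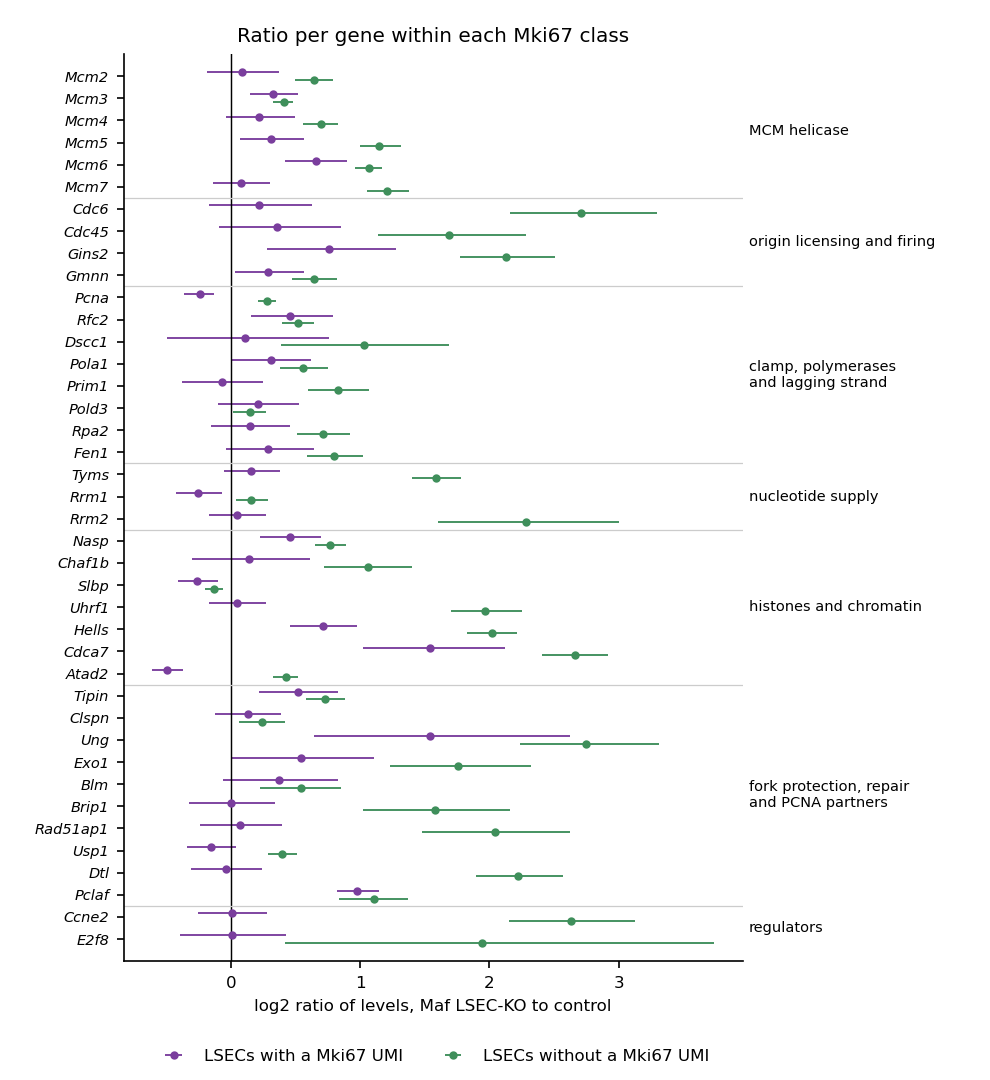
Log2 ratio of the level of each gene, Maf LSEC-KO to control, in LSECs with (purple) and without (green) a Mki67 UMI, with 95% counting intervals as bars and the line at 0 marking equal levels. Purple points lie between -0.49 and 0.98 apart from Cdca7 and Ung at 1.54, and most green points lie to their right, up to Ung at 2.75.

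The class shares and the levels per class can be set against each other by arithmetic. With the control level of each class at the class shares of UMIs of the Maf LSEC-KO library, the sum would be 1995 CPM, which covers 70.8% of the 1488 CPM between the libraries. With the Maf LSEC-KO levels at the control shares it would be 1369 CPM, or 28.8% of the difference. These classes do not fully separate cycling from other cells. In the clusters led by replication or mitosis genes, a Mki67 UMI was found in 37.2% of control LSECs. In Maf LSEC-KO it was found in 49.8% and 97.4% of the LSECs of such clusters. Detection of Mki67 also depends on depth, which differed between the libraries. In control, 20.2% of the UMIs of the 40 genes came from LSECs with a Mki67 UMI, which held 4.25% of all UMIs, and in Maf LSEC-KO 66.5%, at 32.9% of all UMIs. Per gene the control share ran from 8.14% for Pold3 to 91.8% for E2f8, with a median of 22.7%. Genes with a larger control share in Mki67 cells tended to have higher ratios between the libraries, with Spearman's rho of 0.81 and Pearson's r of 0.77 across the 40 genes, which share the same cells and libraries and are not independent. Since Mki67 cells held a larger share of all UMIs in Maf LSEC-KO, such a relation follows in part by arithmetic. Both measures also use the same control UMIs of each gene. Cdca7 and Ung stood away from the others, with 16.6% and 21.7% of their control UMIs in such cells and log2 ratios of 2.89 and 3.10.

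**Figure D3:**
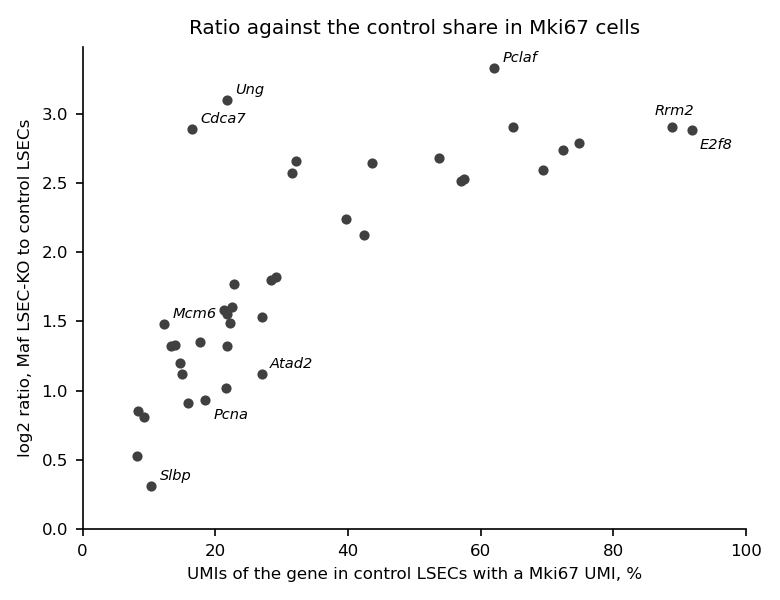
Each point is 1 of the 40 genes, with the percentage of its control UMIs that came from LSECs with a Mki67 UMI on the x axis and the log2 ratio of its level, Maf LSEC-KO to control, on the y axis. The points climb from Slbp at 0.31 to Rrm2 and E2f8 near 2.9, and Cdca7 and Ung lie above the other genes of the same control share.

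The balance of S phase against later phases was read from 32 genes of G2 and mitosis. In all LSECs 31 of the 32 were at least 2-fold higher in Maf LSEC-KO, with a median log2 ratio of 2.59, and the sum was 448.6 and 2060 CPM. In LSECs with a Mki67 UMI that sum was 6254 CPM (6123 to 6386) in the control cells, but only 5465 CPM (5425 to 5506) in those of Maf LSEC-KO, the opposite order to the replication genes. That contrast depends on the denominator. With the UMIs of all genes, the replication genes too were lower in Maf LSEC-KO in this class (log2 ratio -0.06, -0.10 to -0.02). The ratio of replication to G2 and mitosis UMIs in this class was 0.715 in control and 0.899 in Maf LSEC-KO, higher by a log2 of 0.33 (0.28 to 0.38). The order was the opposite elsewhere. Over all LSECs the ratio was 2.10 in control and 1.18 in Maf LSEC-KO, a log2 difference of -0.83 (-0.86 to -0.80). Without a Mki67 UMI it was 4.10 and 3.08, a log2 difference of -0.42 (-0.47 to -0.36). In the latter cells Cenpa (2399 UMIs) and Hjurp (1927 UMIs) held most of the 6012 control UMIs of the G2 and mitosis list. In Maf LSEC-KO they held 3346 and 1917 of 10347, so the ratio without a Mki67 UMI rests largely on these genes. Of the 5 mitosis genes with the most UMIs, Top2a, Cenpf and Hjurp had log2 ratios of -0.35, -0.40 and -0.22 within the class with a Mki67 UMI, Cenpa 0.14 and Cdk1 0.38.

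Single cells were compared after thinning to 2700 UMIs, which 3695 control and 2949 Maf LSEC-KO LSECs reached, while 406 and 168 were too shallow. UMIs of at least 3 of the 40 genes were found in 807 control cells (21.8%, 20.5 to 23.2) and 1158 Maf LSEC-KO cells (39.3%, 37.5 to 41.1). The difference was 17.4 percentage points (15.2 to 19.7), and 19.5 without thinning. Of neutrophil and monocyte-like cells, 0% in control and 3.70% in Maf LSEC-KO had as many. UMIs of at least 8 genes were found in 77 control cells (2.08%) and 409 Maf LSEC-KO cells (13.9%). The gap was thus smaller at 8 genes, with 11.8 percentage points, while the ratio of the shares was larger, with 6.66 against 1.80 at 3 genes. Among these, 44 control cells (57.1%, 45.4 to 68.4) and 324 Maf LSEC-KO cells (79.2%, 75.0 to 83.1) had a Mki67 UMI before thinning, at a median of 13172 and 21202 UMIs. In the median LSEC the 40 genes took 0.0638% of the UMIs in control, against 0.0911% in Maf LSEC-KO, a log2 ratio of 0.52, whereas the 90th percentile was 0.143% and 0.568%.

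**Figure D4:**
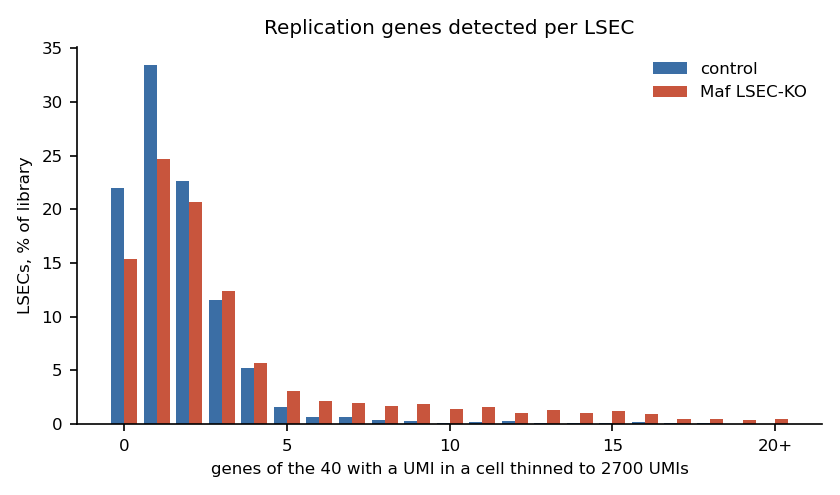
Percentage of LSECs of the control (blue) and the Maf LSEC-KO (red) library by the number of the 40 genes with a UMI, after each cell was thinned to 2700 UMIs, with 20 and more pooled. Most cells of both libraries lie at 0 to 4 genes, and from 8 genes on stand 2.08% of control and 13.9% of Maf LSEC-KO LSECs.

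Maf UMIs were still counted in 662 of the 3117 LSECs of the Maf LSEC-KO library, and the replication genes were read by this number within that library. The sum of the 40 genes was 2493 CPM (2475 to 2511) in the 2455 cells with 0 Maf UMIs, 2535 CPM in 335 cells with 1, and 2546 CPM in 128 cells with 2 to 4. In the 199 cells with at least 5 Maf UMIs it was 1088 CPM (1044 to 1135), a log2 ratio of -1.20 (-1.26 to -1.13) to those with 0 and of 0.21 (0.15 to 0.27) to control LSECs. Of these 4 classes, that with at least 5 Maf UMIs alone stood near the control level. It had a Mki67 UMI in 7.04% of cells (3.90 to 11.5), against 24.3%, 26.9% and 28.1% in the classes with 0, 1, and 2 to 4. A median of 9928 UMIs per cell was found in it and of 14065 in the class with 0. After thinning, at least 3 of the 40 genes had a UMI in 24.1% of the class with at least 5 Maf UMIs, 40.3% of that with 0 and 21.8% of control LSECs.

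For single genes the cells with at least 2 Maf UMIs, 327 in all, were set against those with 0, with a log2 ratio of the sum of -0.45 (-0.48 to -0.42), and -0.67 (-0.77 to -0.58) after thinning. All 40 genes were below 0, with a median of -0.47 against -0.03 over all genes, and 3 were at least 2-fold lower, or 7.5%, against 1.54% of all genes. These were Rrm2 (49.3 CPM with 0 and 22.7 CPM with at least 2 Maf UMIs), Pclaf (159 and 75.7 CPM) and Brip1 (23.7 and 11.7 CPM), with log2 ratios of -1.12, -1.07 and -1.02. Ung (12.4 and 12.2 CPM) and Mcm2 (53.2 and 49.6 CPM) had the smallest differences, with intervals that held 0. Markers moved with these classes too. In cells with at least 2 Maf UMIs the Kupffer cell markers, of which 9 of 9 had a UMI in both classes, summed to 183 CPM, against 82.4 CPM in those with 0, the neutrophil and monocyte markers (8 of 8) to 64.7 against 43.5 CPM and the LSEC markers (10 of 10) to 10770 against 5750 CPM. Kupffer cell-like cells of this library carried Maf at 1508 CPM. With LSECs that held a UMI of Ptprc, Cd52, Adgre1, Clec4f, Acta1 or Arg1 left out, the log2 ratio by Maf UMIs was -0.49.

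**Figure D5:**
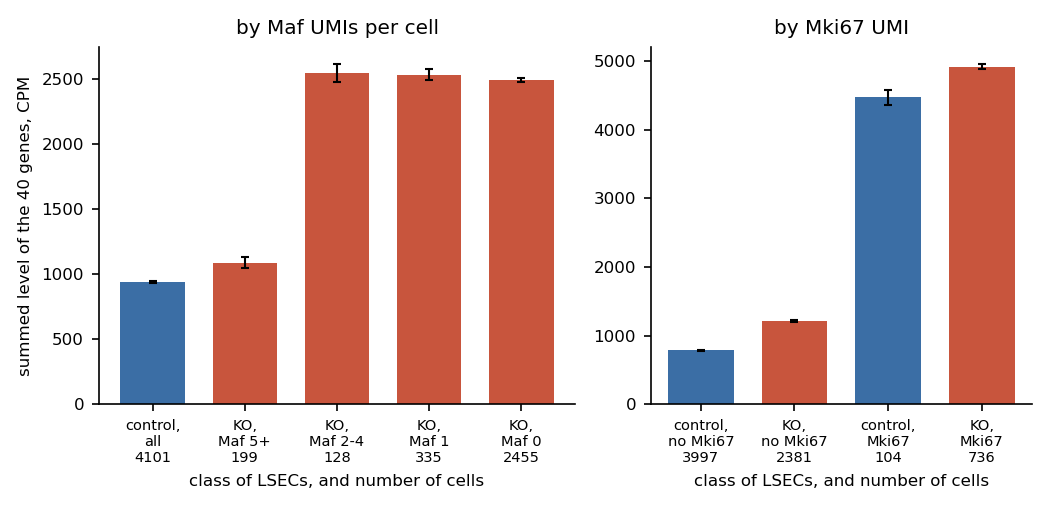
Summed level of the 40 genes in CPM with 95% counting intervals, on the left in control LSECs (blue) and in LSECs of the Maf LSEC-KO library (red, KO) by their number of Maf UMIs, on the right in LSECs without and with a Mki67 UMI, with the number of cells under each bar. On the left the class with at least 5 Maf UMIs stands at 1088 CPM near the control bar at 940.9 CPM, and on the right the libraries stand at 4469 and 4916 CPM in the Mki67 cells and at 784.5 and 1212 CPM outside them, log2 ratios of 0.14 and 0.63.

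Clustering of the Maf LSEC-KO library gave 2 clusters led by genes of the cycle, of 404 and 309 LSECs, with 5407 and 6242 CPM for the 40 genes and 1283 and 11390 CPM for the genes of G2 and mitosis. Several of the 40 genes helped to form these clusters, so their levels there are a description only. A higher level in the first was found for 15 of the 40 genes, 2 of them at least 2-fold, and in the second for 25, of which 4 at least 2-fold. The first, which had less mitosis RNA than the second but more than the 375.6 CPM of the other Maf LSEC-KO clusters, had more Ung (55.8 against 3.33 CPM), Cdca7 (115 against 52.5 CPM), Mcm2 (152 against 82.3 CPM) and Hells (260 against 151 CPM). The second had more Rrm2 (239 against 66.8 CPM), E2f8 (71.0 against 19.9 CPM), Pclaf (693 against 273 CPM) and Brip1 (93.0 against 46.2 CPM). All 6 MCM genes had a higher level in the first cluster than in the second. The shares of all genes that differ between these 2 clusters were not counted, so these counts are not read as particular to the 40. Clustering of the control library also gave a cluster led by genes of the cycle, of 188 LSECs. It had 4230 CPM for the 40 genes and 3992 CPM for the genes of G2 and mitosis, again a description only. This cluster held 4.58% of control LSECs, and the 2 of Maf LSEC-KO held 13.0% and 9.91% of the LSECs of their library.

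RNA of other cell types moved with the library, and its part in the results was not tested. Over all LSECs the T/NK cell markers summed to 4.02 CPM (9 of 10 with a UMI, Cd3g at 0) in control and 31.4 CPM (10 of 10) in Maf LSEC-KO, the 8 B cell markers to 3.87 and 20.8 CPM, the 8 neutrophil and monocyte markers to 18.2 and 46.7 CPM, and the 9 Kupffer cell markers to 62.5 and 98.8 CPM. Cholangiocyte markers summed to 5.27 CPM (6 of 7 with a UMI, Sox9 at 0) and 10.6 CPM (7 of 7), and large vessel markers, with Vwf at 0 by selection, to 839 and 913 CPM. Stellate cell (31.6 and 8.39 CPM), hepatocyte (141.3 and 57.96 CPM), erythroid (1263 CPM with Klf1 at 0, and 18.9 CPM), lymphatic (753 and 351 CPM) and LSEC markers (20060 and 6299 CPM) were lower in Maf LSEC-KO, and plasmacytoid dendritic cell markers, of which endothelial cells express some, stood at 2061 and 2630 CPM with Siglech at 0 in the latter. With LSECs that held a UMI of Ptprc, Cd52, Adgre1, Clec4f, Acta1 or Arg1 left out, the log2 ratio of the 40 genes was 1.31 (1.29 to 1.33), with 3504 control and 2165 Maf LSEC-KO cells.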

How the data were processed

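LSECs were measured by 3′ scRNA-seq in 1 control and 1 Maf LSEC-KO library of 3 pooled mice each. Reads were aligned and counted by the authors with Cell Ranger 6.0.2 and mm10 (per their processing notes). The deposited values are raw UMI counts, not normalized, for barcodes of at least 500 UMIs. No replicates exist, and nothing was tested between the libraries.

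Barcodes that reached 1500 UMIs and 750 genes were clustered per library with Seurat 5.3.0 (R 4.3.3, log-normalization, 16 and 20 principal components, resolution 0.3). Scrublet (scanpy 1.11.5) called 0 doublets by its automatic limit, so barcodes with the highest scores were left out at the expected rate. In endothelial-like clusters, Pecam1 and 7 or more of 14 endothelial genes each had a UMI in 50% or more of the cells and markers of other types in fewer. Clusters led by markers of another type were left out. Cells with a Vwf UMI were removed (161 control, 1135 Maf LSEC-KO). A Vwf UMI was also found in 23.1% and 20.1% of barcodes in the 2 Maf LSEC-KO clusters led by cycle genes. In the control cluster of this kind it was found in 1.01%. Levels are CPM of summed UMIs, calls need at least 100 UMIs and a 2-fold ratio, and intervals are exact at 95% (Poisson, or Clopper-Pearson for shares; scipy 1.17.1), apart from the balance of phases and the difference of shares, where they are approximate. Only counting error is covered. A count of 0 allows up to 3 counts. Cells were thinned once to 2700 UMIs, about the 10th percentile of control depth. Ratios were checked on simulated data. TMM factors came from edgeR 4.0.16.

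The 40 genes and the lists were chosen with earlier results of these data known. Named were all 40 genes, Maf and Mki67, the 5 highest and 5 lowest other replication genes with at least 100 UMIs, and the 5 genes of G2 and mitosis with the most UMIs. Alternatives covered doublets, the Vwf filter, other cell types, mitochondrial share, depth, cell selection, clustering, scaling, summaries and class limits. Promoters were RefSeq windows of GRCm38.p6. Subtraction of empty droplets was not repeated, and other assays were not analysed here.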

Additional observations from a re-analysis of the deposited data

Results flagged for a closer look

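The 40 replication genes were also higher in Maf LSEC-KO than in control in 4 kinds of cells outside the LSECs compared, some of which served as background or in alternatives, each with counting intervals that do not meet. Endothelial-like cells with a Vwf UMI had 686 CPM (648 to 726) in the 161 cells of the control library, against 1912 CPM (1891 to 1933) in the 1135 of the Maf LSEC-KO library, with a Mki67 UMI in 2.48% and 18.6% of them. Endothelial-like cells left out as doublets had 776 CPM in 173 control and 3268 CPM in 187 Maf LSEC-KO cells, and 4.05% and 52.9% of these had a Mki67 UMI at a median of 13294 and 31414 UMIs. Kupffer cell-like cells had 793 CPM (749 to 839) in the 219 control cells, against 1036 CPM (994.7 to 1078) in the 390 cells of Maf LSEC-KO. Neutrophil and monocyte-like cells had 29 UMIs in 40 control cells (181 CPM, 121 to 259.5), against 157 UMIs in the 86 cells of Maf LSEC-KO (412.5 CPM, 350.5 to 482). None of these differences was tested.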

How the results depend on the processing

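Of 89 alternatives, 1 turned a direction: with the UMIs of all genes as denominator the log2 ratio of the 40 genes in LSECs with a Mki67 UMI was -0.06 in place of 0.14, and mitochondrial and ribosomal protein genes, counted in that denominator, took a larger share of Maf LSEC-KO UMIs. The count of genes at least 2-fold higher was between 31 and 34 over 11 alternatives, and 38 genes were at least 1.5-fold higher, while the difference in the share of thinned LSECs with at least 3 (in 1 alternative 5) of the genes was between 16.1 and 19.5 percentage points over its 9. For the other log2 ratios (1.37 in all LSECs, 0.14 with and 0.63 without a Mki67 UMI, -0.45 by Maf UMIs within the Maf LSEC-KO library, and 0.33 for the balance of phases) the values outside the counting interval were these. All LSECs gave 1.42 without doublet removal and without Pcna, 1.29 with Vwf cells kept and with the per-cell selection, 1.31 without cells with a UMI of another type, 1.18 with the UMIs of all genes, 1.24 with the TMM factor and with the median of ratios, 1.22 as a mean over cells and 1.25 thinned. Chosen after seeing the data were 1.35 with the clusters led by stellate cell or hepatocyte markers kept and 0.34 without the clusters led by cycle genes, a setting that removes cycling cells by construction. LSECs with a Mki67 UMI gave 0.05 without cells with a UMI of another type, 0.07 with the per-cell selection, 0.03 as a mean over cells, 0.09 thinned and 0.18 without Pcna, so the size of this small ratio depends on the setting. LSECs without a Mki67 UMI gave 0.57 with Vwf cells kept and with the per-cell selection, 0.59 without cells with a UMI of another type, 0.44 with the UMIs of all genes, 0.50 with the TMM factor, 0.47 with the median of ratios, 0.67 without Pcna, 0.66 with a limit of 2 Mki67 UMIs and 0.43 with Top2a. By Maf UMIs the values were -0.40 without doublet removal, -0.38 with Vwf cells kept, -0.49 without cells with a UMI of another type, -0.52 with the per-cell selection, -0.39 with the UMIs of all genes, -0.65 as a mean over cells, -0.67 thinned, -1.20 with at least 5 and -0.16 with at least 1 Maf UMI. The balance of phases was 0.38 with Vwf cells kept, 0.23 without cells with a UMI of another type, 0.24 with the per-cell selection and 0.23 with Top2a. The causes of these shifts were not tested. No paired analysis was possible because each condition is 1 library. The control class with Mki67 has 104 cells, and the difference in depth between the libraries limits what shares of cells can show.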

Other observations

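T/NK cell-like cells had the opposite order to LSECs, with 2507 CPM (2278 to 2752) of the 40 genes in 29 control cells and 1185 CPM (1063 to 1316) in 60 Maf LSEC-KO cells. The control sum rests on few cells, since 3 cells held 65.5% of it, and the medians per cell were 1270 and 993 CPM. B cell-like cells had 924 CPM (834 to 1020) in the 47 control cells, against 1099 CPM (962 to 1250) in the 39 cells of Maf LSEC-KO, with intervals that overlap. Cholangiocyte-like cells were found in the Maf LSEC-KO library, with 840 CPM in 37 cells.

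Shmt1, the other replication gene with the highest ratio, had 43.2% of the UMIs counted in Maf LSEC-KO from cells with a Mki67 UMI, against 89.4% for Ccne1, 88.1% for Ticrr and 86.8% for Brca1. Its log2 ratio was 1.48 within the Mki67 class and 3.65 outside it.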
